A study of Gallus gallus with 18 samples.

Results

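The genes described here encode the proteins of the cytosolic ribosome. They were taken by symbol: RPL or RPS followed by a number, or RPLP followed by a number, with the ribosomal S6 kinases left out and only probe sets that carry 1 gene symbol used. This gave 67 of the 13009 genes with such a probe set, 43 of the large subunit, 23 of the small subunit and RPS19BP1, which fits the rule by its letters but encodes a protein that binds RPS19 and is no part of the ribosome. The 67 genes have 141 probe sets, and each gene is described by the probe set with the highest mean over the arrays.

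The ribosome joins amino acids into protein. Its small subunit holds the messenger RNA and reads the code, and its large subunit forms the peptide bond and lets the new chain out through a tunnel. Ribosomal proteins are, for the most part, needed in equal numbers, are among the most abundantly transcribed genes of most cells, and in vertebrates their mRNAs begin with a run of pyrimidines through which mTOR signalling controls their translation.

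Chickens (Gallus gallus) were kept at 28 ± 1 °C for 8 days and were then taken as controls (T0) or held at 40 ± 1 °C for 3 h (T3). The cerebral cortex (called brain here), the liver and the leg muscle were each measured on 3 control and 3 heat Affymetrix arrays, which makes 18 arrays in 6 groups. The labels name 24 birds, 12 male and 12 female, call the arrays biological replicates, and do not say which birds went to which array or whether birds were pooled. Controls and heated birds differ in sampling time as well as in temperature, and the labels give no strain. The p-values below measure the spread between these arrays.

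Arrays of the same group correlated with each other at 0.976 to 0.993, and each tissue showed its own markers: 14 of 19 hepatocyte, 14 of 15 skeletal muscle, 13 of 14 neuron and 6 of 10 glial genes were at least 4-fold higher in the controls of their own tissue. One array stood apart in what follows. In heat array 1 of the brain, the hepatocyte markers had a median of 19.2% of their liver level, against 1.24% and 1.71% in brain heat arrays 2 and 3 and 0.729% to 0.946% in the brain controls. Muscle heat array 3 held 30.9%, and the other muscle arrays 1.56% to 6.66%. The main brain counts and medians of the ribosomal protein genes are therefore given with and without brain heat array 1. The relation to gene numbers, further probe sets and other gene lists are given only with all brain arrays or array by array.

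The ribosomal protein probe sets were among the brightest on the arrays. Of the 67 genes, 59 had a mean intensity of 5000 or more over the arrays, a level reached by 0.926% of all probe sets, and the brightest averaged 16080. Arrays can compress differences at such brightness. The others were RPL23, RPL3L, RPL7L1, RPL22L1, RPL31, RPS13, RPS27L and RPS19BP1. RPL31 and RPS13 were dim in all 3 tissues, with group means of 108 to 218 and 79 to 175. The bacterial trp control probe sets read up to 97.6 on liver heat array 3, and at most 53 to 65 on the brain arrays. RPL3L was near the level of the trp controls in brain and liver. Intensities of different probe sets depend on the probes, so levels are compared below only within a gene.

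In control birds most ribosomal protein genes had nearly the same level in brain, liver and leg muscle, and the genes that differed included both paralogs and genes of the standard set. Between brain and liver, 61 of 66 genes tested lay within 0.5 on the log2 scale, between brain and muscle 63 of 67, and between liver and muscle 63 of 67. The shares of all probe sets tested within that range were 37.5%, 39.8% and 49.4%. By limma with Benjamini-Hochberg adjustment over all probe sets, 10 of 66 genes differed between brain and liver, 3 higher and 7 lower in brain, against 40.2% of probe sets higher and 32.2% lower. Between brain and muscle 10 of 67 differed, 6 higher and 4 lower in brain (40.5% and 29.7% of probe sets), and between liver and muscle 7 of 67, 5 higher and 2 lower in liver (32% and 29.3%). Between 61.3% and 72.4% of all probe sets passed in either direction in these comparisons, and 71.6% to 72.9% of those with a mean intensity of 2000 or more. The counts in each direction depend on how the tissues are scaled to each other. With quantile normalization they were 16 higher and 4 lower (brain against liver), 5 and 8 (brain against muscle) and 3 and 10 (liver against muscle), and with array medians set equal 3 and 30, 3 and 23, and 7 and 2. Of all probe sets 75.4%, 74% and 62.2% passed in either direction with quantile normalization, and 75.1%, 72.6% and 61.5% with equal medians. The median of all probe sets was 0.08, 0.10 and 0.02 as deposited, -0.09, -0.11 and -0.02 with quantile normalization, and -0.12, -0.06 and 0.05 with equal medians. The smaller differences named below are relative to those shifts.

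**Figure D1:**
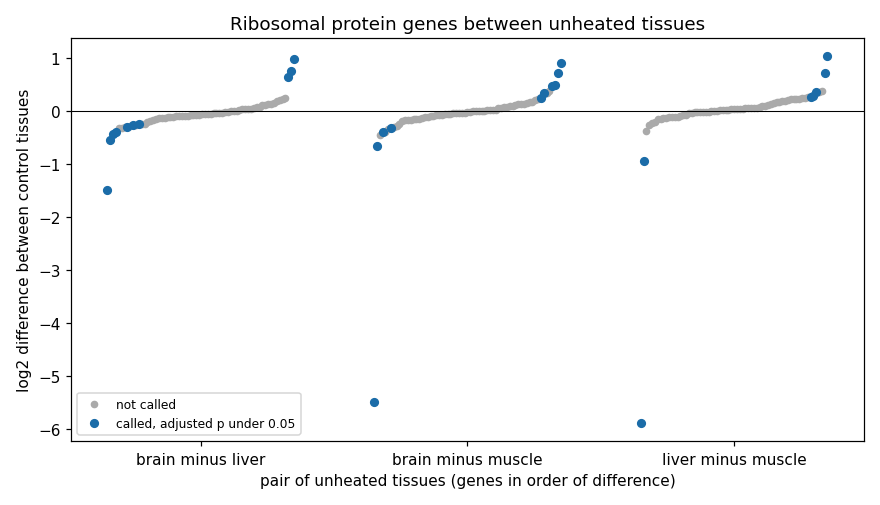
Log2 differences of 67 ribosomal protein genes between control tissues, 1 point per gene, with genes past the limma threshold in blue. Most points lie within 0.5 of 0 in each comparison. Genes outside in at least 1 comparison include RPL3L, RPS27L, RPL22L1, RPL7L1, RPS28 and the dim RPL31 and RPS13. RPL3L was not tested between brain and liver.

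RPL3L, the paralog of RPL3 that striated muscle uses in mammals, had the clearest tissue pattern. Its intensities were 3952, 3802 and 3888 in the muscle controls, 82.49, 61.6 and 70.66 in the brain controls and 47.9, 52.06 and 50.81 in the liver controls. The liver values lie in the range of the trp control probe sets of the same arrays, which read at most 65.4 to 72.6. The brain values are low too, but above the trp controls of their arrays, which read at most 53 to 59.6. The fitted differences (log2 -5.48 for brain minus muscle and -5.88 for liver minus muscle) therefore have no exact size. The muscle arrays were far above all others. RPL3 itself, which lies close to the site of peptide bond formation, had control means of 8335 ± 187 (SD, n = 3) in brain, 10248 in liver and 7976 in muscle. RPL3 was higher in liver than in brain (log2 0.29 in size, adjusted p = 0.0320 by limma) and than in muscle (log2 0.36, adjusted p = 0.0121).

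RPS27L, a paralog of RPS27 known in human cells as a target of p53, was highest in liver. Its control intensities were 5582, 5503 and 6776 in liver, 2073, 2044 and 2212 in brain and 2089, 2900 and 3892 in muscle. The liver arrays were above all others, while brain and muscle overlapped. The difference of brain minus liver was -1.48 (SE 0.26, adjusted p = 6.1e-05 by limma) and that of liver minus muscle 1.04 (SE 0.26, adjusted p = 0.00225). RPS27 itself was not among the genes taken by symbol. RPS27A, a different protein that is made as a fusion with ubiquitin, had control means of 10762 (brain), 11650 (liver) and 11257 (muscle). No difference of RPS27A passed.

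RPL22L1, the paralog of the RNA-binding protein RPL22, was highest in brain. It read 2311, 2779 and 3205 in the brain controls, 1560, 1199 and 1360 in the liver controls and 1419, 1577 and 1985 in the muscle controls, and the brain values were above the others. Brain exceeded liver by 1.00 on the log2 scale (SE 0.26, adjusted p = 0.00233 by limma) and muscle by 0.73 (SE 0.26, adjusted p = 0.0183). The call against liver was lost, at 0.27 (adjusted p = 0.0563 by limma), when the gene's probe sets were averaged. That against muscle was lost with quantile normalization (0.46, adjusted p = 0.11), with equal array medians (0.56, adjusted p = 0.0692), without brain control 3 (0.62, adjusted p = 0.0737) and without muscle control 1 (0.63, adjusted p = 0.0673). RPL22 had control means of 5762 (brain), 5932 (liver) and 4567 (muscle), with no difference past the threshold. RPL7L1, a paralog of RPL7 that takes part in ribosome assembly, was highest in liver (3245, 3521 and 3378) against brain (2319, 2266 and 2354) and muscle (2037, 2260 and 1815). Its differences were -0.54 for brain minus liver (adjusted p = 0.00011 by limma) and 0.73 for liver minus muscle (adjusted p = 6.4e-06), and RPL7 did not pass.

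RPL39L carries the symbol of a paralog of RPL39 best known from mammalian testis. Neither RPL39 nor RPL26 was among the genes taken by symbol. Whether the chicken genes called RPL39L and RPL26L1 are the paralogs or the standard genes was not settled. RPL39L read 11297 (brain), 9491 (liver) and 8047 (muscle) on average, and passed between brain and muscle (log2 0.49, adjusted p = 0.00136 by limma). RPL26L1 did not pass in any pair. RPS19BP1, not a ribosomal protein, passed against muscle from both brain (0.48) and liver (0.27). Of the standard set, RPS28 was lower in brain than in muscle (log2 -0.66, SE 0.24, adjusted p = 0.0214). RPS28 no longer passed when brain control 1 was left out (-0.63, adjusted p = 0.0571 by limma) or muscle control 3 (-0.52, adjusted p = 0.0912). RPL10A, which forms the mobile L1 stalk where spent tRNA leaves, was lower in brain than in liver (-0.39) and in muscle (-0.40). RPLP0, the base of the stalk that recruits elongation factors, was lower in brain than in liver (-0.42, adjusted p = 0.00824). RPL13, RPL14, RPS2, RPS3 and RPS14 passed in at least 1 pair by 0.24 to 0.34 in size. The dim RPL31 and RPS13 passed as well, at low intensities.

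After 3 h of heat, ribosomal protein genes in the brain were lower by a median of 0.44 on the log2 scale (a difference of -0.44), but few passed the test gene by gene. Of 66 genes tested, 4 fell and 0 rose at an adjusted p under 0.05, against 5.74% of all probe sets lower (7.27% of those with a mean of 2000 or more) and 6.55% higher, so the share that fell (4 of 66) was near the background. The size of the differences was not near it. The median log2 difference over the members was -0.44, against -0.0011 over all 19220 probe sets and -0.04 over the 1802 probe sets with a mean of 2000 or more, and 64 of 66 members were below 0. In 40 of 66 genes the 3 heat arrays all lay below the 3 controls, against 18.2% of all probe sets and 24.5% of the bright ones, and in 0 genes all above, against 18.3%. An unadjusted p under 0.05 with lower values was reached by 50 of 66, against 16% of all probe sets and 23.6% of the bright ones. In tissue samples, fewer cells of a type and less RNA per cell cannot be told apart.

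The spread between the heat arrays was large, and it lay with brain heat array 1. Averaged over the 66 genes, the log2 difference from the control mean was -0.07 in heat array 1, -0.53 in heat array 2 and -0.67 in heat array 3, while the control arrays lay at -0.03, -0.01 and 0.03. In heat arrays 2 and 3, 63 and 64 of 66 genes read below every control array, and in heat array 1 40 did. The share of all probe sets below every control on a single heat array was not counted, so these counts have no background. Without heat array 1, 57 of 66 genes fell and 0 rose (35 of 42 of the large and 22 of 23 of the small subunit), against 12.5% of probe sets lower, and the median was -0.60. The 9 genes that did not pass were RPL3, RPL4, RPL5, RPL6, RPL7L1, RPL9, RPLP0, RPS13 and RPS19BP1. This set of 2 heat arrays was looked at because array 1 stood apart. Without any other single brain array, 0 genes passed by limma, with 27 to 42 at an unadjusted p under 0.05 and medians of -0.45 to -0.32. In those fits 0% to 1.55% of all probe sets passed as lower, so a count of 0 is near the background.

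**Figure D2:**
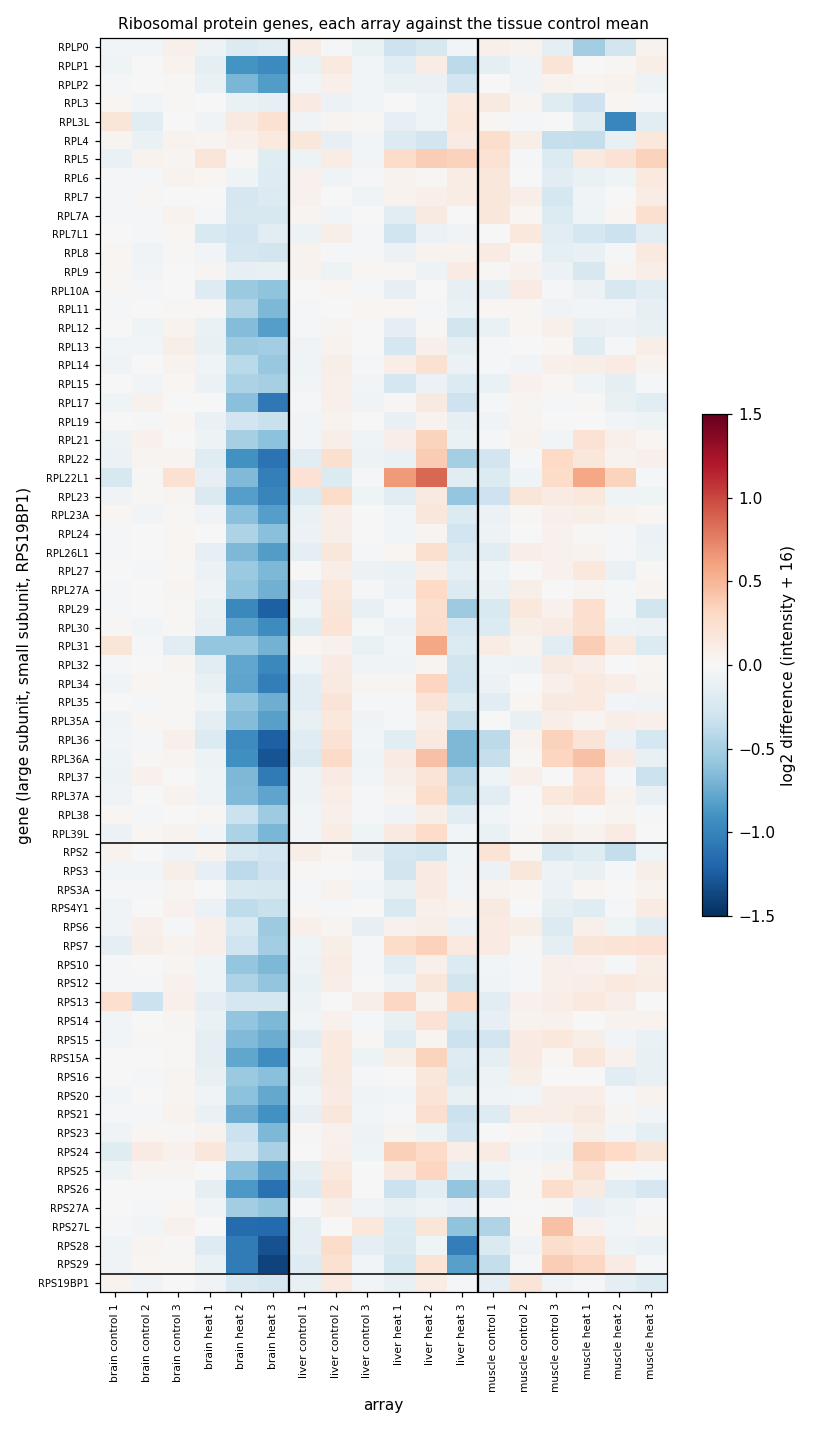
Log2 difference of each of 67 ribosomal protein genes (rows) from the control mean of its tissue on each of 18 arrays (columns), with blue for lower and red for higher values. Brain heat arrays 2 and 3 are blue over almost all genes, and brain heat array 1, the liver arrays and the muscle arrays are paler and mixed.

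Other measures also moved in the brain. The hepatocyte markers were raised in heat array 1 as given above. Skeletal muscle markers were at 1.97%, 1.75% and 1.39% of their muscle level in brain heat arrays 1 to 3, against 0.632% to 0.789% in the controls. The summed intensity of 6 erythrocyte genes was 20206, 10098 and 6204 in the heat arrays and 14044 to 20694 in the controls, so it was lowest on the same arrays, 2 and 3, as the ribosomal protein genes. Over 14 neuron markers the brain heat arrays lay at 99.4% to 108% of the control level and the controls at 96.9% to 101%, and glial markers were at 92.5%, 74.6% and 78% in heat against 89% to 111% in the controls. For EEF1A the ratio of 3' to 5' probe sets, which rises as RNA degrades, was 1.4, 1.32 and 1.36 in heat and 1.47 to 1.56 in the controls. The same ratio for actin was 1.35, 1.17 and 1.08 in heat arrays 1 to 3 and 1.33 to 1.39 in the controls, so it was lowest on heat arrays 2 and 3. The part of these measures in the result was not tested.

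The 4 genes that fell were RPL31, RPL10A, RPL23 and RPS15. RPL31, which sits by the exit of the peptide tunnel, read 247.6, 212.9 and 192.4 in the controls and 139.1, 139.3 and 126.4 in heat. These intensities are low, though above the trp control probe sets of the brain arrays, which read at most 65. RPL31 fell by 0.62 on the log2 scale (SE 0.12, adjusted p = 0.0240 by limma). RPL10A read 7582, 7398 and 7501 in the controls and 6574, 5072 and 4922 in heat. It fell by 0.45 (SE 0.11, adjusted p = 0.0385 by limma), and heat arrays 2 and 3 were the lowest. RPL23, at the face of the large subunit that meets the small one, read 3766, 3961 and 4027 in the controls and 3358, 2207 and 1964 in heat. It fell by 0.68 (SE 0.18, adjusted p = 0.0440 by limma). RPS15, in the head of the small subunit, read 9190, 9564 and 9593 in the controls and 8520, 5955 and 5641 in heat, and fell by 0.52 (SE 0.14, adjusted p = 0.0491 by limma). The heat and control arrays did not overlap for any of the 4 genes, and heat array 1 lay closest to the controls for RPL10A, RPL23 and RPS15.

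The differences of largest size did not pass the test. RPS28, in the small subunit near the path of the mRNA, read 5437, 5841 and 5751 in the controls and 4951, 2732 and 2283 in heat (log2 -0.85, SE 0.24, adjusted p = 0.0530 by limma). RPS29, a small zinc-binding protein of the same subunit, read 9743, 10251 and 10258 against 9388, 4858 and 3831 (-0.85, SE 0.27, adjusted p = 0.0727 by limma). In heat arrays 2 and 3 both genes were far below every control, and in array 1 only a little below. RPL36 (-0.79, SE 0.22, adjusted p = 0.0505 by limma) and RPL36A (-0.77, SE 0.26, adjusted p = 0.0815), 2 small proteins of the large subunit, had the same order of arrays. RPL36 read 7155, 4275 and 3523 in heat against 8030 to 8669 in the controls, and RPL36A 5602, 3112 and 2394 against 5671 to 6109. Without heat array 1 these 4 genes fell by 1.18, 1.22, 1.09 and 1.11 on the log2 scale.

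At the other end were 3 genes of the large subunit. RPL4, which lines the peptide tunnel, read 7993, 7258 and 8014 in the controls and 7944, 8186 and 8560 in heat (log2 0.09, adjusted p = 0.44 by limma). RPL5, which carries 5S ribosomal RNA into the subunit, read 6489, 7169 and 7149 in the controls and 7879, 6994 and 6110 in heat (0.01, adjusted p = 0.98). RPL9, near the base of the stalk, read 9774, 9246 and 9607 against 9824, 8770 and 8828 (-0.06, adjusted p = 0.57). In each of these 3 genes the heat and control arrays overlapped. RPL11, the partner of RPL5 on 5S ribosomal RNA, read 7809, 7856 and 7983 against 7992, 5776 and 4920 (-0.37, adjusted p = 0.14 by limma).

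The stalk that recruits elongation factors is built of RPLP0 with copies of the small acidic proteins RPLP1 and RPLP2. RPLP0 read 6183, 6193 and 6697 in the brain controls and 6019, 5516 and 5685 in heat (log2 -0.15, SE 0.073, adjusted p = 0.20 by limma). RPLP1 read 8309, 8729 and 8993 against 7876, 4637 and 4464 (-0.67, SE 0.19, adjusted p = 0.0559). RPLP2 read 7009, 7161 and 7259 against 6643, 4430 and 3984 (-0.54, SE 0.17, adjusted p = 0.0649). All 3 were below every control in every heat array, and the drop in heat arrays 2 and 3 was larger for the acidic proteins than for RPLP0.

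The large and the small subunit had similar values in the brain. The median log2 difference was -0.45 over 42 large subunit genes and -0.43 over 23 small subunit genes, and 26 and 14 of them had all heat arrays below all controls. The mean of large minus small subunit genes was -0.03, 0.03 and 0.03 in the 3 heat arrays. No test was made of this difference, since genes are not replicates.

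**Figure D3:**
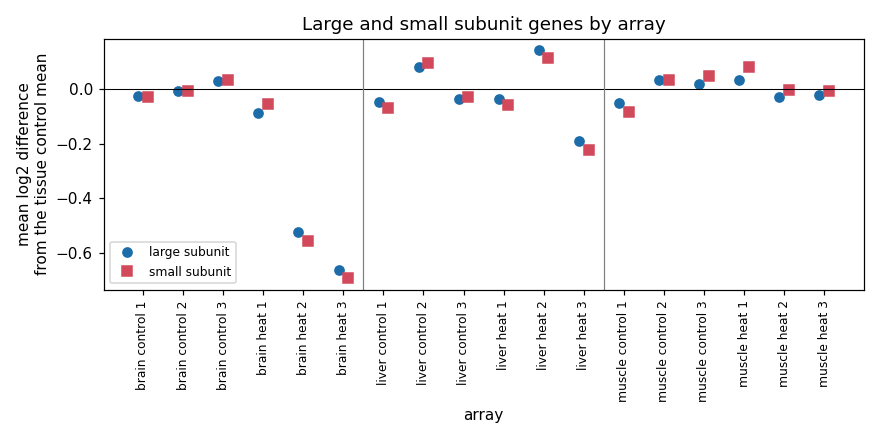
Mean log2 difference from the tissue's control mean over large (circles) and small (squares) subunit genes on each of 18 arrays. The 2 subunits lie almost on each other on each array, brain heat arrays 2 and 3 lie near -0.53 and -0.67, and all other arrays lie between -0.22 and 0.14.

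Within both subunits, the brain difference varied with the number in the gene's symbol. Ribosomal proteins were numbered by their place on gels, so low numbers tend to mark large proteins and high numbers small ones. This relation was chosen after the values were seen, and the paralogs and the P proteins were left out. Over 35 large subunit genes Spearman's rho between number and brain log2 difference was -0.73, and over 22 small subunit genes -0.69, with all genes measured on the same arrays. Large subunit genes with numbers below 10 (n = 8) had a median of -0.07 and a range of -0.19 to 0.09, and in 0 of them were all heat arrays below all controls. The 27 large subunit genes numbered 10 or more had a median of -0.51 and a range of -0.79 to -0.24, and 21 of them had all heat arrays below. The 6 small subunit genes below 10 had a median of -0.24 (-0.27 to -0.15) and the 16 others -0.47 (-0.85 to -0.19). All heat arrays lay below all controls in 2 of the 6 and in 12 of the 16. In the liver rho was -0.22 and -0.27 for large and small subunit genes, and in muscle 0.33 and 0.13.

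The same ordering by number also set single arrays of other groups apart from their own replicates. Large subunit genes gave a rho of -0.48, -0.74 and -0.73 on the 3 brain heat arrays and between -0.23 and 0.32 on the brain controls. They gave -0.69 and 0.73 on liver control arrays 1 and 2, -0.78 on liver heat array 3, -0.64 and 0.74 on muscle control arrays 1 and 3, and 0.73 and -0.53 on muscle heat arrays 1 and 3. Each control array was set against the mean of its tissue's 3 controls, itself included. Opposite signs among controls are therefore partly built in and are not a separate result. The 3'/5' ratios differed between the same arrays. For EEF1A it was 1.21 on liver control array 1 (rho -0.69) and 1.43 on array 2 (rho 0.73), and 1.27 on liver heat array 3 against 1.3 and 1.39 on the other liver heat arrays. In muscle it was 1.53 on control array 1 (rho -0.64) and 2.3 on control array 3 (rho 0.74), with 2 and 3.43 for actin, and it was 1.89 on heat array 1 (rho 0.73) and 1.63 on heat array 3 (rho -0.53). Among these liver and muscle arrays the EEF1A ratio was thus lower, within a group, where rho was negative. In the brain it was 1.47, 1.56 and 1.54 on control arrays 1 to 3 (rho -0.23, 0.32 and -0.09). On brain heat arrays 1 to 3 it was 1.4, 1.32 and 1.36 (rho -0.48, -0.74 and -0.73). Over the brain arrays, heat and control together, the EEF1A ratio and rho had the same order. Across tissues the order did not hold, with 1.63 on muscle heat array 3 (rho -0.53) against 1.43 on liver control array 2 (rho 0.73). The level of the EEF1A ratio itself differed between tissues, at 1.21 to 1.43 in liver and 1.53 to 2.3 in muscle. Other values within a tissue did not follow the order of rho. On brain heat array 1 (rho -0.48) the actin ratio was 1.35, against 1.33 to 1.39 on the brain controls. Muscle heat array 2 had the lowest ratios of its group (1.58, and 2.36 for actin) with a rho of 0.20. Among the liver controls actin was highest on array 3 (2.21, rho -0.19), against 1.42 on array 1 and 1.64 on array 2. The part of these ratios in the pattern was not tested. On brain heat array 3 the large subunit genes below 10 had a median of -0.18 and the others -0.79. On liver heat array 3 these medians were 0.12 and -0.26, and on muscle control array 3 -0.19 and 0.07.

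**Figure D4:**
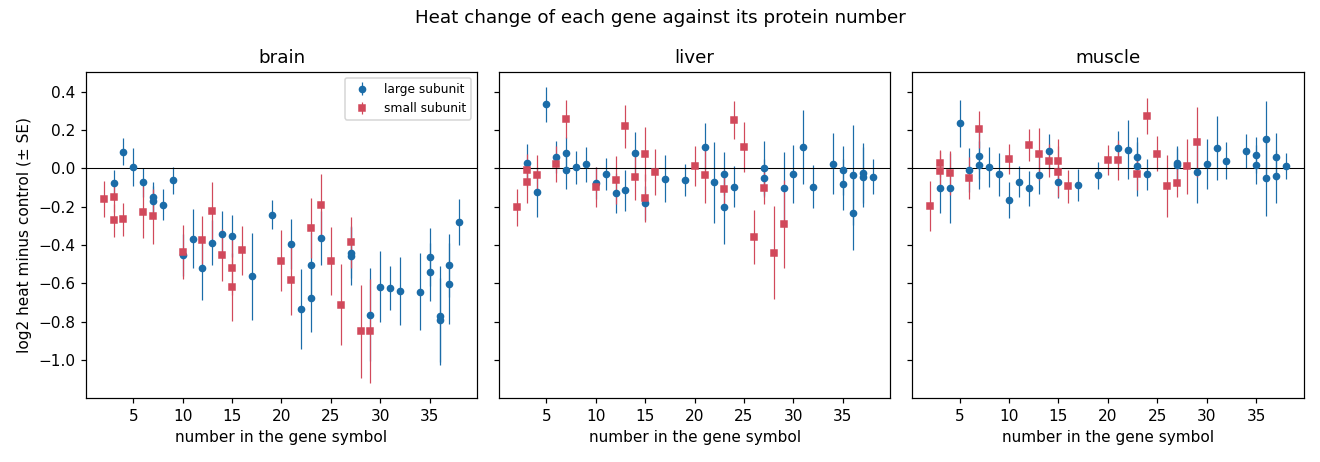
Heat log2 difference (with SE) of each ribosomal protein gene against the number in its symbol, in brain, liver and muscle, with circles for the large and squares for the small subunit. In the brain the points tend to lie lower at higher numbers. Large subunit genes below 10 lie near 0 and small subunit genes below 10 between -0.27 and -0.15. RPS28 and RPS29 reach about -0.85, while RPL38 lies at -0.28. In liver and muscle the points scatter around 0.

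Probe sets not used above gave a weaker picture of the brain. Of 44 further probe sets of 26 of these genes that were tested, 35 were lower in heat, 34 had the sign of their gene's main probe set, 6 fell and 1 rose (against 5.74% and 6.55% of all probe sets), and their median was -0.16. Those that fell belong to RPL10A, RPL19, RPL24, RPL29, RPL36 and RPL38. RPS24 was the gene whose other probe set rose (log2 0.56, adjusted p = 0.0405 by limma), while its main probe set read -0.19 (adjusted p = 0.45). A second probe set of RPS12 had a difference of 0.34 (adjusted p = 0.0554 by limma), against -0.37 (adjusted p = 0.0808) for its main one and -0.27 (adjusted p = 0.24) for a further one. The probe sets of RPS24 and of RPS12 thus disagreed in sign, and so did, with adjusted p-values further from the threshold, 1 other probe set each of RPL4, RPL7L1, RPL9, RPL21, RPL22L1, RPL29, RPLP1 and RPS14.

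Of the genes with the symbol of a paralog, none passed in the brain with all arrays. Without heat array 1, RPS27L (log2 -1.16), RPL22L1 (-0.85), RPL26L1 (-0.76) and RPL39L (-0.58) fell, with adjusted p-values of 0.0034 or less by limma. RPL7L1 did not pass there either. The values that follow are from all arrays. RPS27L read 2073, 2044 and 2212 in the controls and 2122, 942.3 and 933.5 in heat (log2 -0.77, SE 0.28, adjusted p = 0.10 by limma), so it was low on heat arrays 2 and 3 and within the control range on array 1. RPL22L1 read 2311, 2779 and 3205 against 2517, 1720 and 1336 (-0.61, SE 0.22, adjusted p = 0.0970), and RPL22 5419, 5930 and 5938 against 5088, 3053 and 2659 (-0.73, SE 0.21, adjusted p = 0.0531). RPL7L1 had a difference of -0.22, RPL7 -0.15, RPL26L1 -0.55, RPL39L -0.40, RPS27A -0.39, RPL3 -0.08 and RPS19BP1 -0.17. RPL3L was too dim in brain and liver to be tested there.

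In the liver, whose arrays were quantile normalized before this comparison, the ribosomal protein genes stayed close to control as a group, and RPL5 rose. Of 66 genes tested 1 rose and 0 fell, against 6.94% of all probe sets higher and 6.13% lower (6.77% of those with a mean of 2000 or more). The median log2 difference was -0.04, and -0.03 over all probe sets. Heat arrays lay all below the controls for RPL15, RPLP2 and RPS27A and all above for RPL5, RPS7 and RPS24, which makes 3 of 66 in each direction against 19.4% and 17.7% of probe sets. RPL5 read 6984, 7961 and 7167 in the controls and 8946, 9513 and 9370 in heat. The heat arrays were above all controls, and the rise was 0.33 on the log2 scale (SE 0.092, adjusted p = 0.0470 by limma). RPL5 did not pass with array medians set equal, without the filter on dim probe sets, without the intensity trend or with any 1 liver array left out (adjusted p from 0.0757 to 0.17 by limma in the last).

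RPS7 and RPS24, both of the small subunit and both linked to Diamond-Blackfan anaemia in human, were the next on the higher side apart from RPL22L1. RPS7 read 6842, 7608 and 6997 in the liver controls and 8645, 9097 and 7916 in heat (log2 0.26, SE 0.097, adjusted p = 0.11 by limma). RPS24 read 8081, 8562 and 7760 against 10423, 9915 and 8735 (0.25, SE 0.099, adjusted p = 0.12 by limma). Both were above every control on every heat array, and neither passed. RPL22L1 read 1677, 1243 and 1420 against 2237, 2624 and 1283 (0.45, SE 0.25, adjusted p = 0.25 by limma), with array 3 inside the control range.

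The lowest values in the heated liver came from heat array 3. RPS28 read 6391, 8589 and 6452 in the controls and 6088, 6774 and 3432 in heat (log2 -0.44, adjusted p = 0.24 by limma). RPS26, near the channel where mRNA leaves, read 7093, 9319 and 8192 against 6493, 7311 and 5412 (-0.36, adjusted p = 0.12). RPS29 had a difference of -0.29 and RPL36 of -0.23. These genes overlapped between the groups. Over the 66 genes the 3 liver heat arrays averaged -0.04, 0.13 and -0.20, and the controls -0.05, 0.09 and -0.03, so the heat arrays spread in both directions. RPLP0 had a difference of -0.20, RPLP1 -0.15 and RPLP2 -0.16. Among genes with the symbol of a paralog, RPS27L (-0.21), RPL7L1 (-0.15), RPL39L (0.12) and RPL26L1 (0.02) did not pass. Nor did RPL3 (0.03), RPL7 (0.08), RPL22 (-0.07) and RPS19BP1 (-0.01).

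In leg muscle no ribosomal protein gene passed, and only 1 of all probe sets did (0.0052% higher, 0% lower). The count by limma at an unadjusted p under 0.05 was 0 lower and 1 higher of 67, against 8.55% and 7.58% of probe sets. The median was 0.01, as over all probe sets. Heat arrays lay all below the controls for RPL3L, RPL7L1 and RPS27A and all above for RPS7, RPS12 and RPS24, 3 of 67 in each direction against 11.7% and 10.1% of probe sets. RPL3L read 3952, 3802 and 3888 in the controls and 3418, 1966 and 3477 in heat (log2 -0.44, SE 0.22, adjusted p = 0.37 by limma). Each heat array was lower, and array 2 stood below the other heat arrays. RPS24 read 8703, 7765 and 7556 against 10124, 9819 and 9093 (0.27, SE 0.093, adjusted p = 0.23 by limma), with every heat array above every control.

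RPL7L1 (log2 -0.25), RPLP0 (-0.25) and RPS2 (-0.20), the last beside the mRNA entry of the small subunit, were the next lowest in heated muscle, and RPL22L1 (0.30) and RPL5 (0.24) the highest beside RPS24. RPL5 read 9029, 7709 and 6758 in the muscle controls and 8595, 9059 and 9866 in heat (adjusted p = 0.39 by limma), so the groups overlapped. RPL22L1 read 1419, 1577 and 1985 against 2475, 2077 and 1611 (adjusted p = 0.50), and they overlapped too. The adjusted p by limma was 0.39 for RPL7L1, 0.46 for RPLP0 and 0.50 for RPS2. RPS27L (0.02), RPL22 (0.10), RPL3 (-0.10), RPL7 (0.02), RPL26L1 (-0.01), RPL39L (0.06) and RPS19BP1 (-0.12) did not pass either. Without muscle heat array 3, which held the hepatocyte transcripts, 0 genes passed as well. The mean over the 67 genes was 0.05, -0.02 and -0.02 in the 3 heat arrays and -0.06, 0.04 and 0.03 in the controls.

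**Figure D5:**
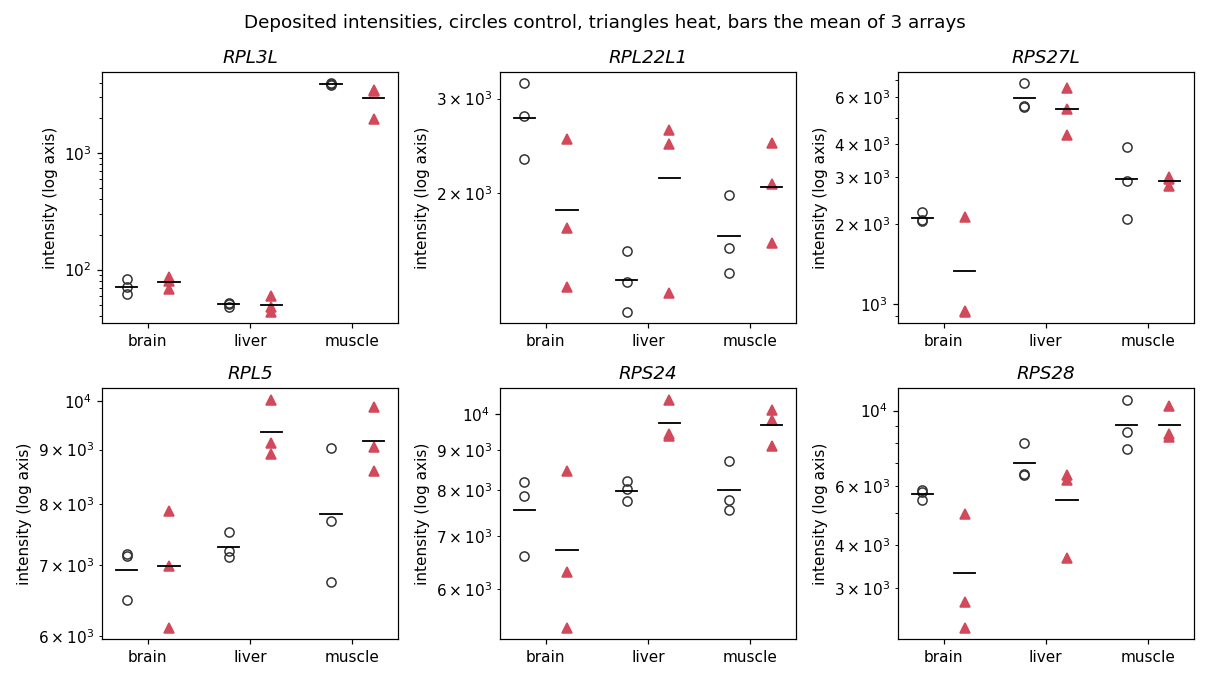
Deposited intensities (log axis) of RPL3L, RPL22L1, RPS27L, RPL5, RPS24 and RPS28 on each of 18 arrays, by tissue and by control or heat. RPL3L is far above its brain and liver values in muscle, RPS27L is highest in liver, and RPS28 is lowest on brain heat arrays 2 and 3.

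Whether heat acted differently between tissues was tested as the difference of the heat effects over all 18 arrays, on the deposited values. By limma, 0 of 66 genes passed for liver minus brain, 0 of 67 for muscle minus brain and 0 of 67 for muscle minus liver, against 1.69%, 0.341% and 0.964% of all probe sets in either direction and 2.39%, 0.461% and 1.26% of the bright ones. By direction, higher and lower, the shares of all probe sets were 1.04% and 0.644%, 0.149% and 0.192%, and 0.309% and 0.655%. The medians were 0.43, 0.47 and 0.02, against 0.04, 0.01 and -0.02 over all probe sets. At an unadjusted p under 0.05, 34 of 66 genes had a higher value in liver minus brain (10.1% of probe sets) and 41 of 67 in muscle minus brain (6.14%), with 0 and 1 lower (6.07% and 5.21%). Muscle minus liver had 0 in both directions, against 4.49% higher and 8.06% lower. The first 2 comparisons share the brain arrays. Without brain heat array 1, 36 and 39 genes passed, all higher, against 2.17% and 0.971% of probe sets.

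RPL22L1 had the largest difference between liver and brain, with a heat effect of 0.57 in liver and -0.61 in brain. The difference was 1.17 (SE 0.37, adjusted p = 0.12 by limma), and it was 0.90 for muscle minus brain (adjusted p = 0.34). RPS29 was first for muscle minus brain (0.99, SE 0.37, adjusted p = 0.29 by limma), followed by RPL36A (0.92, adjusted p = 0.36), which was also high for liver minus brain (0.79, adjusted p = 0.32). RPL4 (-0.18 and -0.19 against brain) and RPS2 (-0.05 for liver minus brain) were at the lower end. Between muscle and liver, RPS29 (0.41) and RPS28 (0.40) were at the upper and RPL22L1 (-0.27) at the lower end. RPL3L entered these fits only through its level in muscle and lies at or near background in brain and liver. Its values are therefore not a difference between heat effects and are left out.

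Genes that work with ribosomal proteins were taken from lists of the translation machinery. RACK1, a scaffold bound to the small subunit, differed in heat by -0.21 (brain), -0.19 (liver) and -0.22 (muscle), and none of these passed. Of 23 elongation factors and other genes whose mRNAs carry the same pyrimidine start, 0 passed in brain and muscle, with medians of -0.04 and 0.04. In liver 4 of 23 rose and 0 fell, against 6.94% and 6.13% of probe sets, among them EIF3E, a subunit of an initiation factor (log2 0.49, adjusted p = 0.0179 by limma), and IPO5, an importer of ribosomal proteins into the nucleus (0.61, adjusted p = 0.0227). NAP1L1 rose by 0.50, and EEF1A2 by 2.10, from control values of 69.23 to 122.6 near background.

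Ribosome assembly factors formed the longest of these lists. Of 73 tested, 13 fell and 1 rose in liver (median -0.11), 6 fell and 3 rose in brain (median -0.06), and 0 passed in muscle. In liver IMP3, a part of the small subunit processome, fell by 0.85 (adjusted p = 0.0155 by limma), NOLC1, a nucleolar phosphoprotein, by 0.85 (adjusted p = 0.0225), and RRP9, which binds U3 RNA, by 0.61 (adjusted p = 0.0186). DDX10, a helicase, rose by 0.53 (adjusted p = 0.0488). In brain NIP7, needed for ribosomal RNA processing, fell by 0.81 (adjusted p = 0.0240 by limma) and LSG1, a GTPase of late large subunit maturation, rose by 0.51 (adjusted p = 0.0257). These shares can be read against the 6.13% and 6.94% of liver and the 5.74% and 6.55% of brain probe sets that passed as lower and higher.

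Of 16 genes of RNA polymerase I and ribosomal DNA transcription, 2 fell and 1 rose in brain (5.74% and 6.55% of probe sets). In liver 2 fell (6.13%), and in muscle 0 passed. The median log2 difference of this RNA polymerase I list was -0.29 in brain, -0.03 in liver and 0.04 in muscle. RRN3, the initiation factor of this polymerase, rose in brain by 0.68 (adjusted p = 0.0163 by limma), and the shared polymerase subunits POLR2L and POLR2H fell by 0.91 and 0.62. In liver POLR2E, another shared subunit, fell by 0.75 and POLR1E by 0.56. Among mTOR pathway genes, RPS6KB1, the kinase that phosphorylates RPS6, rose in brain by 0.38 (adjusted p = 0.0375 by limma) as 1 of 20 tested, with 6.55% of probe sets higher. In liver 3 of 23 rose and 2 fell (6.94% and 6.13% of probe sets), with PDCD4, an inhibitor of the helicase EIF4A, up by 1.34 (adjusted p = 0.00685 by limma) and SESN1, an inhibitor of mTOR, by 0.61 (adjusted p = 0.0193). RPS6 itself read 11868, 12943 and 12077 in the brain controls and 13000, 10509 and 8447 in heat (log2 -0.23, adjusted p = 0.29 by limma), with overlapping groups.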

How the data were processed

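The authors deposited linear intensities, 1 for each probe set on each array. GCOS 1.4 is named, per the submitters' processing notes, without its role, and biotin-labelled cRNA was made from total RNA, per the labels' protocols. How probes were summarised, background-corrected and scaled is not given in the sources used here. No array counts reads, so the number of arrays (3 a group) limits the precision.

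Of 38439 probe sets without the 96 controls, 27168 carry 1 symbol, 177 several and 11094 none, by GEO's platform annotation. All 67 members matched the RefSeq table. Values were analysed as log2(intensity + 16), so changes of dim genes are understated. Deposited scaling was kept in brain and muscle (highest over lowest trimmed mean 1.07 and 1.04, within 10%), and liver (1.12) was quantile normalized. Probe sets whose mean log2 value lay below the tissue's median were left out (limits of 96.1, 82.1 and 85.1 in intensity), which left 19220 each. Heat and control were compared with limma 3.58.1 in R 4.3.3 (lmFit, eBayes with trend, two-sided, Benjamini-Hochberg over all probe sets, threshold 0.05); tissue contrasts and interactions used all 18 arrays with deposited scaling. The steps were tested on simulated data.

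Members and lists were chosen with earlier results of these data known. Named genes are the called members of smallest p, the largest differences per comparison, and the paralogs with same-numbered genes where present. RPL6, RPL11, RPL13, RPL14, RPL15, RPL19, RPL21, RPL24, RPL29 and RPL38 were added after their values were seen. So were RPS3, RPS6, RPS12, RPS14, RPLP1, RPLP2 and the genes of the other lists. Alternatives were other scalings, other pseudocounts and filters, no trend, an 18-array fit, a mean over a gene's probe sets, a replicate block, and leaving out each array. Same-numbered control and heat arrays of a tissue did not deviate together (correlations -0.48 to 0.37), so heat comparisons were not paired. Same-numbered control arrays of different tissues correlated at 0.15 to 0.17 (brain and liver), 0.03 to 0.26 (brain and muscle) and 0.22 to 0.52 (liver and muscle). Arrays of different number were not compared, so these values do not show whether same-numbered arrays share birds.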

Additional observations from a re-analysis of the deposited data

Results flagged for a closer look

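RPS12, a protein of the small subunit, was singled out because its arrays separated in opposite directions in brain and muscle. Every brain heat array lay below every brain control, and every muscle heat array above every muscle control. Of all probe sets, 18.2% separated downward in brain and 10.1% upward in muscle. All members were searched for this over each pair of tissues. The heat difference was -0.37 on the log2 scale in brain (8071, 8086 and 8616 in the controls, 7865, 5974 and 5483 in heat) and 0.12 in muscle (7386, 7557 and 8129 against 8257, 8481 and 8319). Neither passed within its tissue (adjusted p = 0.0808 and 0.52 by limma). Tested as muscle minus brain over the 18 arrays, the difference was 0.49 (SE 0.15, unadjusted p = 0.00539, adjusted p = 0.20 by limma) and did not pass. Another probe set of RPS12 had a brain difference of 0.34 (adjusted p = 0.0554 by limma), of opposite sign. A further one had -0.27 (adjusted p = 0.24 by limma), with the sign of the main one. The direction in brain thus depends on the probe set. Groups of 3 arrays were not searched for single outlying arrays.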

How the results depend on the processing

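In the brain 4 ribosomal protein genes fell. The count was 18 with quantile normalization, 20 with array medians set equal, 24 in a fit over 18 arrays, 2 without the filter, 2 without the intensity trend and 0 when a gene's probe sets were averaged, and 0 rose in each. The share of all probe sets that passed under these settings was not counted. Whether these counts moved with those of the whole array thus cannot be told. The median log2 difference of the members was -0.32 with quantile normalization, -0.47 with array medians set equal and -0.31 with probe sets averaged. In the main fit it was -0.44. Leaving out 1 array gave counts of 0 to 57, with 0% to 12.5% of all probe sets lower. In liver the count of 1 became 0 with equal medians, without the filter and without the trend, and was 0 to 1 with 1 array left out, the 1 being RPL22L1 (log2 0.75, adjusted p = 0.0494 by limma without liver heat array 3). In muscle it was 0 throughout. The cause was not tested. The brain median kept its sign (-0.60 to -0.32 with 1 array left out); those of liver (-0.13 to 0.01) and muscle (-0.03 to 0.03) did not.

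Large minus small subunit medians were -0.02 in brain (-0.055 with quantile normalization, 0.0338 with probe sets averaged, -0.041 to -0.0015 with 1 array left out), 0.0058 in liver (0.0315 with probe sets averaged, -0.0134 to 0.0249) and -0.017 in muscle (0.0282 with probe sets averaged, -0.0463 to 0.00096). Heat effect differences that passed ran from 0 to 36 (liver minus brain), 0 to 39 (muscle minus brain) and 0 to 0 (muscle minus liver) with 1 array left out. The 36 and 39 came without brain heat array 1, against 2.17% and 0.971% of all probe sets higher. Between control tissues they ran from 7 to 9, 7 to 13 and 5 to 8, and shares of all probe sets were not counted there. With quantile normalization 20 passed for brain and liver (75.4% of all probe sets) and 13 for liver and muscle (62.2%). With equal medians 33 passed for brain and liver (75.1%) and 26 for brain and muscle (72.6%). With probe sets averaged these counts were 19 and 17, against 75.9% and 73.6% of all genes.

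With the replicate number as a block, 1 gene, RPL31, fell in brain and 1, RPL22L1, had a higher heat effect in liver than in brain (log2 1.17, adjusted p = 0.0224 by limma). In the fit of liver minus brain 2.19% of all probe sets passed in either direction. That share was not counted for the brain fit. Between control tissues the block changed no count by over 1.5 times. Of the results for single named genes under the alternatives, 821 kept their side of the threshold, 46 were lost and 19 gained. RPL31 and RPS13 are limited by their low intensity. Promoter sequences were not analysed here.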
